A study of Mus musculus with 19 samples.

Results

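The comparison set 5 arrays of fetal mouse cortex exposed to goitrogen and then to replacement thyroid hormone (hypo+) against 5 control arrays (control), 10 of the 19 arrays in the series, chosen by their titles. It asked which genes were not at the control level 12 hours after the replacement dose. All fetuses were wild type C57BL/6 at gestational day 16, each array held RNA from the cortex of 1 fetus described as female, and all dams drank water with 2% sucrose from gestational day 13 and received 1 injection 12 hours before they were killed. Control dams had no goitrogen and an injection of vehicle. Hypo+ dams had goitrogen in the water, and the injection held 25 µg thyroxine (T4) with 2.5 µg triiodothyronine (T3) per 100 g body weight, meant to restore a normal hormone level. The other groups were hypo (goitrogen and vehicle, 5 arrays) and hyper (no goitrogen, 100 µg T4 with 10 µg T3 per 100 g, 4 arrays). Drugs in the goitrogen water are given in the treatment text as 1% perchlorate with 0.025% methimazole, whereas other fields name propylthiouracil, so the drug is called goitrogen here. Dose and water reached the fetus through the dam, and no hormone measurement was used here. There were 20 dams, 5 per group, and whether fetuses shared a dam is not stated. If some did, the p-values cover the spread between fetuses and not that between dams.

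Thyroid hormone reaches the fetal brain from the mother before the fetal thyroid makes enough of its own. T4 is carried into cells by membrane transporters such as Slco1c1, is turned into the active T3 by the deiodinase Dio2, and T3 binds the nuclear receptors Thra and Thrb, which sit on DNA and switch their target genes. In the developing cortex the hormone is known for its part in neuronal migration, layering and maturation, and Klf9 and Hr are among its best known direct targets.

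The arrays carried cortex RNA by their markers. On all 19 arrays Emx1, a transcription factor of the dorsal forebrain, read 400.6 to 687.1, Neurod6, a marker of excitatory neurons, 2147 to 4964.5, and Eomes, of intermediate progenitors, 1242.2 to 2913.8. RNA of neighbouring tissue was present too, with Ttr of the choroid plexus at 5282.4 to 18536.6. The median signal of an array was 73.1 to 106 in controls and 84.3 to 103.3 in hypo+. Precision is limited by 5 arrays per compared group. One hypo+ array, replicate 1, went against its description. Xist, the RNA that silences an X chromosome in females, read 68.8 there, whereas it read 7033 to 8120 in the rest of hypo+ and 3145.1 to 7238.2 in control, and Ddx3y of the Y chromosome read 695.9 against 9.0 to 11.3 in controls. Replicate 4 of hyper had the same pattern (Xist 97.2, Ddx3y 546.7), and hyper arrays enter the estimate of the spread.

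Of 17730 genes, 100 (0.564%) differed between hypo+ and control at an adjusted p under 0.05 in limma, a linear model with a spread shared across genes, fitted to log2(signal + 32). Of these 25 (0.141%) were higher and 75 (0.423%) lower in hypo+. Differences below are log2 differences on this scale, which understates the change of dim genes. The rises had a median of 0.50 (0.25 to 1.00) and the falls of −0.34 (−0.73 to −0.22), beside −0.02 for all genes. Without any model, the 5 hypo+ arrays did not overlap the 5 control arrays in 559 genes (3.15%), above them in 128 (0.722%) and below them in 431 (2.43%), and this held for 92 of the 100 called genes, which the same values had picked. An unadjusted p under 0.05 was found for 2441 genes (13.8%).

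A gene that missed the threshold was not thereby back at the control level, so the 95% confidence interval of each difference was set against a bound of 0.5, chosen for this purpose. For 15517 genes (87.5%) the interval lay inside −0.5 to 0.5. For 2 genes (0.0113%) it lay wholly outside, Taf15 (0.66 to 1.34) and Prrc2c (0.55 to 1.03). For the other 2211 (12.5%) the arrays did not settle it. Each interval is of 1 probe set per gene, and the mean of a gene's probe sets gave 0.36 for Taf15 and 0.23 for Prrc2c. The share inside the bound depends on the pseudocount, and was 66.3% of the same genes with a pseudocount of 1 and 95.6% with 100. Of the 100 called genes 46 had an interval inside the bound, so many of the called differences were small.

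The number called rested on single arrays. It was 0 without control replicate 3, with 2099 genes at an unadjusted p under 0.05 and a smallest adjusted p of 0.0503. It was 51 and 16 without control replicates 1 and 5, and 13, 9, 16 and 12 without hypo+ replicates 2, 3, 4 and 5. Arrays outside the comparison moved it as well, to 171 without hypo replicate 1 and to 58 and 64 without hyper replicates 2 and 3. Without hypo+ replicate 1, the array with Y-linked signal, 141 genes were called (22 higher, 119 lower), and when hyper replicate 4 was left out too the count was 94 (16 higher, 78 lower), 64 of them among the 100. Quantile normalization turned the balance to 44 higher and 31 lower, and centring each array on its median gave 8 higher and 87 lower. Median centring moved the median of all genes from −0.02 to −0.12. Over all 17730 genes 7549 differences were positive and 10181 negative. Quantile normalization gave 8037 and 9693, and median centring 3371 and 14359. Counts of positive or negative list members below have to be read beside these.

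**Figure D1:**
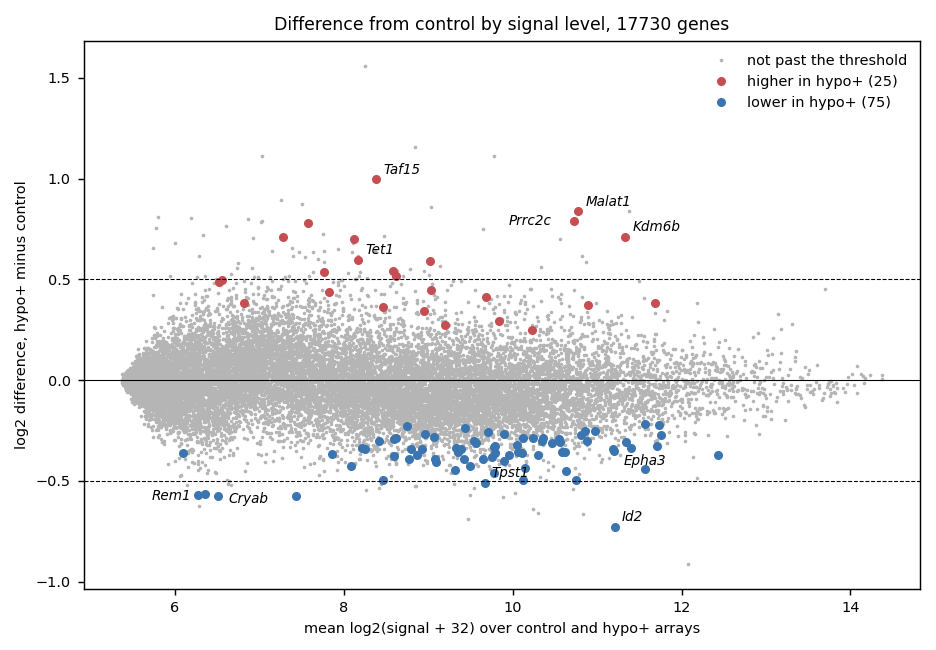
Difference of hypo+ from control (vertical axis, log2(signal + 32)) against mean level (horizontal axis, log2 scale) for 17730 genes, with called genes in colour and dashed lines at the bound of 0.5. The 25 rises reach 1.00 (Taf15) and the 75 falls reach −0.73 (Id2), and larger differences such as Tcf7l2 at 1.56 did not pass the test.

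The largest rise was that of Taf15, and 2 further rises were in genes of the same list, that of RNA granule proteins. Taf15, an RNA-binding protein of the same family as Ewsr1, read 379, 454.5, 460, 511.3 and 402.1 on hypo+ arrays 1 to 5 and 233.6, 223.1, 129.1, 282.7 and 181.9 on control arrays. The lowest hypo+ array lay above the highest control array. The difference was 1.00 ± 0.16 (SE, adjusted p = 0.0159), from a mean of 210 ± 57.8 (SD, n = 5) to 441.4 ± 52.1. Prrc2c, a protein linked to stress granules, read 2166.8, 2424.3, 1979.7, 2268.9 and 2165.3 in hypo+ against 1165.3, 1168.1, 1072.7, 1589.3 and 1350.5 in control. Its groups did not overlap, and it rose by 0.79 ± 0.12 (adjusted p = 0.0112). Atxn2, a regulator of RNA stability and translation, rose by 0.70 ± 0.15 (adjusted p = 0.0382). Control array 4, at 311.5, overlapped its hypo+ range of 293.9 to 369.3, while the other controls read 149.7 to 182.6. Its adjusted p was 0.0512 when hypo+ replicate 1 and hyper replicate 4 were left out. The list of RNA granule proteins had 3 of 17 members called, all rises, where 0.141% of all genes rose. Like the other lists, it was chosen with earlier results of these data known, so its count supports nothing. The median of the list was 0.00 (0.06 under quantile normalization, −0.09 with median centring). Ewsr1 (−0.08, adjusted p = 0.647) was not called. Fmr1, which represses translation at synapses, missed the threshold at −0.23 (adjusted p = 0.0624), although its hypo+ arrays lay below the controls.

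Malat1, a long non-coding RNA kept in nuclear speckles, read 2198, 2315.4, 2069.6, 2245.2 and 2793.1 in hypo+ and 914.2, 1195, 1280.7, 1720.3 and 1412.8 in control. All hypo+ arrays lay above all controls, and the difference was 0.84 ± 0.17 (adjusted p = 0.0379). Leaving out hypo+ replicate 1 and hyper replicate 4 gave 0.86 with adjusted p = 0.0505. Of the 29 measured members of the list of nuclear RNA and splicing, Malat1 rose and Srsf1 fell (1 called under quantile normalization and 1 with median centring), and the list median was 0.02 (0.06 and −0.08 under these scalings). Srsf1, an SR splicing factor, read 903.3 to 1192.9 in hypo+ and 1290.5 to 1572 in control, without overlap (−0.37 ± 0.08, adjusted p = 0.0379, and 0.0584 without hypo+ replicate 1 and hyper replicate 4). Srrm2, the scaffold of nuclear speckles, had 0.49 (adjusted p = 0.0799). Tnpo3, the importin that carries SR proteins into the nucleus, fell by 0.45 on the log2 scale (adjusted p = 0.0405), from 718.7 ± 77.7 to 519 ± 59.5. Its other probe sets had −0.09, 0.12 and −0.03, and the call was lost in 21 of 36 alternative settings.

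In the list of chromatin and DNA methylation 2 enzymes passed, both higher in hypo+. Kdm6b, which removes a repressive methyl mark from histones, read 3005.8, 3691.8, 2977.7, 3337.5 and 3350.8 in hypo+ and 2091, 2299.5, 1430.3, 2375.5 and 1856.7 in control. These ranges did not overlap, with a difference of 0.71 ± 0.13 (adjusted p = 0.0344). Tet1, which oxidises methylcytosine in DNA, rose by 0.60 ± 0.13 (adjusted p = 0.0379), from 208 ± 60 to 324.4 ± 34.5. Its hypo+ range of 270.5 to 364.3 took in control array 4 at 305.5, and leaving out hypo+ replicate 1 and hyper replicate 4 gave 0.58 with adjusted p = 0.0667. Of the 22 members 17 were positive, with a median of 0.06. With median centring 10 were positive, the median was −0.04, and 0 were called (1 under quantile normalization). Over all 17730 genes 7549 were positive, and 3371 with median centring. Kdm5b had 0.31 (adjusted p = 0.127) and Kdm6a, the X-linked relative of Kdm6b, −0.20 (adjusted p = 0.434).

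Other rises were spread over many functions. Ric3, a chaperone of nicotinic acetylcholine receptors and the only member of the synapse and channel list called (of 32), read 172.2, 147.7, 166.8, 172.7 and 174.5 in hypo+ and 79.1, 77, 74.9, 125.6 and 96.1 in control (0.71 ± 0.11, adjusted p = 0.0112). The Ric3 probe set of second highest mean had 0.08, and the mean of its probe sets gave 0.27. Atp8a2, a lipid flippase of neuronal membranes, rose by 0.78 ± 0.15 (adjusted p = 0.0344) and its hypo+ arrays (181 to 265.9) just cleared the highest control (180.6). A probe set of Atp8a2 that was brighter in control (136.5 against 117.9) read 141.5 in hypo+ and had 0.05, and the other had −0.05. Lsm11, which takes part in cutting the ends of histone messenger RNA, read 390.8 to 461.4 against 260.8 to 319.1 (0.54 ± 0.09, adjusted p = 0.0232, and 0.14 at its other probe set). Rflnb, a regulator of filamin and actin, rose by 0.54 (adjusted p = 0.0245), and Gprin2, tied to neurite growth, by 0.45 (adjusted p = 0.0417). The remaining named rises were E130308A19Rik (0.52), Zfp945 (0.59), a zinc finger gene, Ptar1 (0.50), a subunit of a prenyl transferase, and Spata17 (0.49). When hypo+ replicate 1 and hyper replicate 4 were left out, Zfp945 (adjusted p = 0.0698), Ptar1 (0.0703) and Spata17 (0.0574) were not called. The 10 further genes with rises of 0.25 to 0.44 included Snrpd3, a core protein of spliceosomal particles (0.38), Psmd11, of the proteasome lid (0.37), Fzd6, a Wnt receptor (0.36), Uba6, a ubiquitin-activating enzyme (0.34), and Upf3b, of nonsense-mediated decay (0.25).

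**Figure D2:**
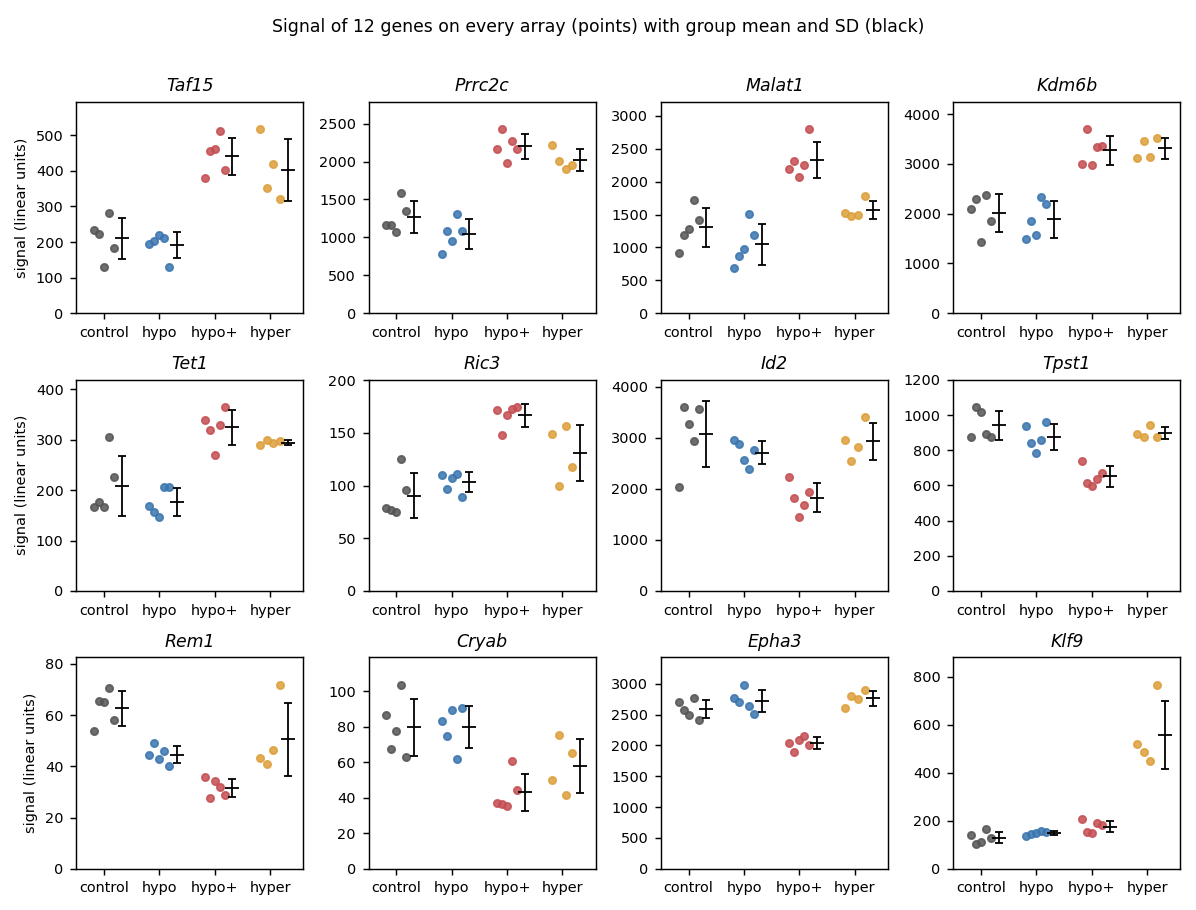
Signal (vertical axes, linear scale from 0) of 12 genes on every array of control, hypo, hypo+ and hyper, with points for arrays and black marks for the group mean and SD. For Taf15 and Prrc2c all 5 hypo+ points lie above all controls, for Rem1 and Tpst1 all 5 lie below, and Klf9, which was not called, is highest in hyper.

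The largest fall was that of Id2, an inhibitor of basic helix-loop-helix transcription factors that keeps progenitors from differentiating. It read 2225.6, 1821.5, 1457.3, 1688.7 and 1945.1 in hypo+ and 2029.7, 3599.9, 3262.9, 2939.9 and 3564.7 in control. Control array 1 lay within the hypo+ range, and the other 4 controls lay above it. The difference was −0.73 ± 0.14 (adjusted p = 0.0344). Of the 9 measured genes of the Id and Hes list, Id2 alone was called. Id1 had −0.18, Id3 −0.17, Id4 0.34 and Hes5, a target of Notch, 0.21.

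Rem1 and Tpst1 were among the falls of smallest adjusted p. Rem1, a small GTPase that restrains calcium channels, read 35.9, 27.5, 34.2, 31.9 and 29 in hypo+ and 53.7, 65.5, 65.1, 70.7 and 58.1 in control, a difference of −0.57 ± 0.08 (adjusted p = 0.0112). These hypo+ signals lay near the lower end of the signal scale, and the other probe set of Rem1 had −0.07. Tpst1, which adds sulfate to tyrosines of secreted proteins, read 738.7, 611.6, 594.1, 638.7 and 672.2 against 874.3, 1044.9, 1016.3, 893.2 and 876.5, a difference of −0.51 ± 0.07 (adjusted p = 0.0112). Neither gene's groups overlapped. Cryab, a small heat shock protein and the 1 called gene of 17 in the heat shock list, fell by 0.57 (adjusted p = 0.0379), from 63.2 to 103.5 in controls to 35.5 to 60.8 in hypo+. With hypo+ replicate 1 and hyper replicate 4 left out Cryab had −0.55 with adjusted p = 0.0636.

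Of the 32 genes of the synapse and channel list 0 fell, and the genes named next were picked from the calls. Cnksr2, a scaffold of the postsynaptic density, fell by 0.57 (adjusted p = 0.0379, and 0.0547 without hypo+ replicate 1 and hyper replicate 4), Neto2, an auxiliary subunit of kainate receptors, by 0.49 (adjusted p = 0.038), and Lin7c, a scaffold of synapses and cell junctions, by 0.44 (adjusted p = 0.0159). Lin7c read 2371.8 to 2743 in hypo+ and 3195.2 to 3918.3 in control. Epha3, an ephrin receptor that guides axons, read 2041, 1893.2, 2087.1, 2157.8 and 2012.2 in hypo+ and 2709, 2582.1, 2499.4, 2775.4 and 2409.2 in control, without overlap (−0.34 ± 0.06, adjusted p = 0.0198). It was the 1 called gene of 34 in the axon guidance list. Pafah1b1, the dynein regulator Lis1 needed for neuronal migration, read 1596.9 to 1779.5 against 1900.5 to 2087.7 (−0.25 ± 0.05, adjusted p = 0.0344, and 0.0505 without hypo+ replicate 1 and hyper replicate 4), and Pafah1b2, of the same enzyme complex, fell by 0.22 (adjusted p = 0.0379). Of the 20 genes of reelin signalling and migration 1 was called (0 under quantile normalization and under median centring). In this list 13 were negative, beside 10181 of all 17730 genes, and the median was −0.10. Dab1, the reelin adaptor, had −0.42 (adjusted p = 0.152) and Lrp8, a reelin receptor, −0.23 (adjusted p = 0.135). Itgb1, an integrin subunit, fell by 0.36 (adjusted p = 0.0344).

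Falls also lay in genes of protein tagging and nuclear transport, which were grouped by symbol only after the calls had been seen, so their counts support nothing. Uba3, the catalytic subunit of the enzyme that starts neddylation, read 1456.3, 1324.6, 1187.4, 1302.6 and 1357.9 in hypo+ and 1806, 1793.7, 2027.9, 1670.1 and 1833.2 in control (−0.45 ± 0.07, adjusted p = 0.0159). The highest hypo+ array lay below the lowest control, but the other probe sets of Uba3 had −0.10 and 0.33. Cul5, a cullin that neddylation switches on, fell by 0.27 (0.05 and 0.20 at its other probe sets) and Cops4, of the signalosome that removes the tag, by 0.29. Rnf4, a ubiquitin ligase that recognises SUMO chains, fell by 0.44 (adjusted p = 0.0379). Btrc, a substrate receptor of cullin ligases, fell by 0.34 at the probe set used, while its other probe sets had 0.08, 0.21, 0.12 and 0.05. Over all 17730 genes 10181 were negative, and 9693 under quantile normalization. In the signalosome family 9 of 9 genes were negative (median −0.13), with 7 of 9 under quantile normalization. Of 39 proteasome genes 35 were negative (median −0.09) and 27 under quantile normalization, while the 1 called gene, Psmd11, rose at the probe set used. Another Psmd11 probe set, brighter in control (1842.5 against 1637), had −0.29 (adjusted p = 0.0511 over all probe sets). Its remaining probe sets had −0.11 to 0.10, so the direction of Psmd11 depends on the probe set. Nup205, a scaffold of the nuclear pore, read 853.7 to 1003.6 in hypo+ and 1126.2 to 1459.8 in control (−0.49 ± 0.10, adjusted p = 0.0379). Of 16 importins and transportins 15 were negative (median −0.17) and 11 under quantile normalization. Tnpo3 and Kpna1 (−0.29) fell. Under quantile normalization 0 importins and transportins, 0 nucleoporins, 0 cullins and 0 signalosome genes were called.

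Ethe1, a sulfur dioxygenase of mitochondria, read 181.3 to 235.3 in hypo+ and 256 to 310.8 in control, without overlap (−0.43 ± 0.08, adjusted p = 0.0364). Of 25 genes of oxidative phosphorylation 0 were called, where 0.564% of all genes were (median −0.07), and the intervals of 24 lay inside the bound. C1galt1, which builds O-linked glycans, fell by 0.57 (adjusted p = 0.0379), with control array 2 at 114.6 inside the hypo+ range of 95.4 to 124.4. Its call was lost in 19 of 36 alternative settings, with adjusted p = 0.0561 without hypo+ replicate 1 and hyper replicate 4. Cab39l, a partner of the kinase Stk11, fell by 0.49 (adjusted p = 0.0379), with control array 2 at 303 below hypo+ array 1 at 320.7.

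**Figure D3:**
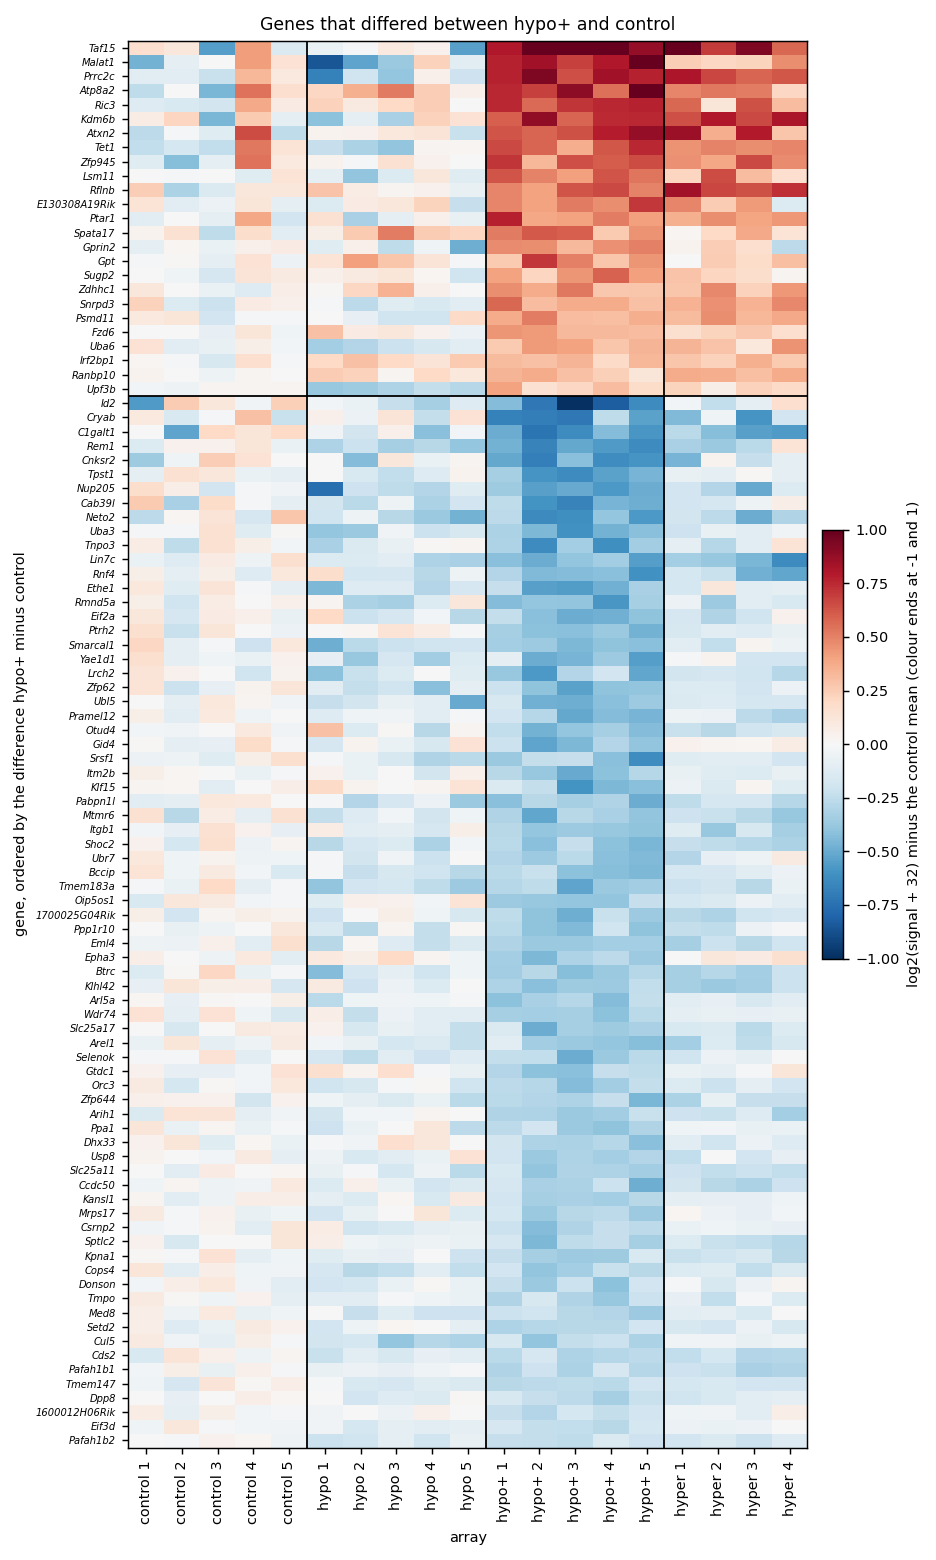
Level of called genes (rows, ordered by the difference) on each of 19 arrays (columns), as log2(signal + 32) minus the control mean, with colours ending at −1 and 1. The horizontal line parts the rises, led by Taf15 (1.00), from the falls, led by Id2 (−0.73).

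The called genes stood at different places under goitrogen alone. The differences of hypo, hypo+ and hyper from control share the control arrays, so they are not independent of one another. The called genes were picked by their hypo+ arrays, which also enter the difference of hypo+ from hypo. A small p-value there is favoured by that choice and is no separate support. For the 25 rises the median difference was 0.01 in hypo (−0.33 to 0.28), 0.50 in hypo+ and 0.36 in hyper (0.05 to 0.86). For the 75 falls it was −0.10 in hypo (−0.32 to 0.08), −0.34 in hypo+ and −0.14 in hyper (−0.45 to 0.09). For all genes it was −0.02, −0.02 and 0.01. Against control, limma called 0 genes in hypo (0.0%, with 1757 or 9.91% at an unadjusted p under 0.05) and 8 in hyper (0.0451%). Between hypo+ and hypo it called 282 (1.59%).

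Among the rises, some genes had a negative difference in hypo, none past the threshold there. Prrc2c had −0.28 in hypo and 0.79 in hypo+, Malat1 had −0.33 and 0.84, and Upf3b had −0.31 and 0.25. Upf3b read 1416.5, 1186.9, 1235.7, 1327.8 and 1211.2 in hypo+, 1043.5, 1029.4, 1082.6, 1084.8 and 1083.8 in control, and 809.9, 825.4, 855.7, 896.3 and 865.9 in hypo. The 3 groups did not overlap, and hypo+ differed from hypo by 0.56 ± 0.06 (adjusted p = 9.69e-05), a p-value favoured by the choice of the gene. Other rises had a positive difference in hypo, such as Atp8a2 (0.28 in hypo, 0.78 in hypo+) and Spata17 (0.26 and 0.49). Taf15 had −0.10 in hypo and 0.86 in hyper, Kdm6b −0.09 and 0.73, and Prrc2c 0.67 in hyper. In hyper these missed the threshold too (adjusted p = 0.101 for Taf15, 0.0751 for Kdm6b and 0.0576 for Prrc2c). Gprin2 had 0.05 in hyper.

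Among the falls, several genes had a negative difference in hypo too, none past the threshold there. The differences in hypo and hypo+ were −0.30 and −0.57 for Rem1, −0.32 and −0.49 for Nup205, and −0.23 and −0.45 for Uba3. For Cul5 the means were 516.8 in control, 424 in hypo and 424.9 in hypo+. Epha3, Cryab and Gtdc1, a glycosyltransferase-like gene, had differences of 0.07, 0.01 and 0.05 in hypo. Against hypo, hypo+ differed by −0.41 in Epha3 (adjusted p = 0.00379) and by −0.58 in Cryab (adjusted p = 0.023). Both genes were picked by the same hypo+ arrays, so these p-values are no separate support. In hyper, Lin7c had −0.45 (adjusted p = 0.0287) and Pafah1b1 −0.26 (adjusted p = 0.0751), close to their hypo+ values of −0.44 and −0.25, while Id2 had −0.05 and Tpst1 −0.06.

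The 10 genes of smallest p between hypo and control, chosen after these values were seen, were followed into hypo+. Of them 0 passed in hypo (adjusted p = 0.113 for each). Genes picked for an extreme value in 1 group tend to lie nearer control in another. Smaller differences in hypo+ are thus favoured by the choice and do not show a return to control. Znhit6, which takes part in ribosome and small nucleolar RNA assembly, read 435.3, 455, 490.7, 470 and 452 in hypo, 571.9, 608.1, 628, 613.3 and 646.1 in control, and 660.2, 611.6, 519.3, 617.3 and 513.9 in hypo+. Its hypo arrays lay below all others shown, and its hypo+ arrays overlapped the controls. The difference from control was −0.39 in hypo and −0.07 in hypo+ (95% interval −0.21 to 0.07). Ubald2 had 0.32 in hypo and −0.06 in hypo+ (−0.18 to 0.06), Gspt2, a translation termination factor, −0.54 and −0.09 (−0.31 to 0.13), and Zfp69, a zinc finger gene, 0.85 and 0.27 (−0.06 to 0.60). Cfdp1, a chromatin gene, had −0.41 and −0.15 (−0.31 to 0.00), Ifrd1 −0.36 and −0.19 (−0.33 to −0.04) and Las1l, of ribosomal RNA processing, −0.34 and −0.20 (−0.34 to −0.06). Upf3b was the only 1 of the 10 called in hypo+, on the other side of control.

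Genes of the lists known to answer to thyroid hormone gave 0 calls. Only 0.564% of all genes were called, so 0 calls in lists this short say little about these genes. Of 26 genes of the hormone-induced list 0 passed, 16 were positive and 10 negative, and the median was 0.07 (−0.02 with median centring, 13 positive). Over all 17730 genes 7549 were positive, and 3371 with median centring. Of 11 hormone-repressed genes 0 passed, with a median of −0.02 (0.00 under quantile normalization). The interval lay inside the bound for 16 of the induced genes (61.5%) and 6 of the repressed ones (54.5%), against 87.5% of all genes, so the rest are not placed at the control level. Klf9, a transcription factor and direct receptor target, read 205.2, 152.1, 149.5, 188.7 and 181.5 in hypo+ and 142, 102.8, 113, 163.7 and 128.9 in control. The groups overlapped through control array 4, and the difference was 0.36 ± 0.12 (95% interval 0.10 to 0.62, adjusted p = 0.182). In hyper it read 449.4 to 765.2, above all arrays of the other groups (1.84). Sema3c, a secreted guidance cue, had 0.19 (−0.02 to 0.39) in hypo+ and 1.35 in hyper. Sorl1, a sorting receptor, had 0.12 and 0.86, Dbp, a clock output gene, 0.15 and 0.93, and Camk4, a calcium-dependent kinase, −0.03 and 0.54. Hr, a corepressor, had −0.09 (−0.35 to 0.17) and 0.27, and Shh, a morphogen, 0.34 (0.01 to 0.66) and −0.27. The intervals of Klf9 and Shh ran past 0.5. In hyper, Klf9, Sema3c, Sorl1 and Dbp passed the threshold, and Camk4, Hr and Shh did not. These values are of the probe set used. The other probe set of Sema3c had −0.35 in hypo+, and the other probe sets of Camk4 had −0.50, −0.22, −0.30 and −0.28. Those of Camk4 read 61.2, 99.1, 51.8 and 43.2 in hyper against 66.3, 80.7, 51.5 and 74.6 in control (means).

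Genes that carry, convert and sense the hormone gave 0 calls of 20 measured, which says little where 0.564% of all genes were called. Their median was 0.02, and intervals lay inside the bound for 18. Thra, the main receptor of fetal brain, read 2751.4 to 3572.6 in hypo+ and 2705.7 to 3244.6 in control (0.06, 95% interval −0.12 to 0.25). Thrb read 28.3 to 31.3 and 26.8 to 32.1 (0.01), near the lower end of the signal scale. The transporter Slco1c1 had 0.05, with an interval of −0.28 to 0.38. Dio2 read 58.6, 54.2, 29.7, 36.6 and 40.6 in hypo+ and 59.9, 57.6, 35, 53.4 and 49.4 in control, and the groups overlapped (−0.13, −0.44 to 0.17). In hypo it had 0.28. Crym, a binding protein of T3 in the cytosol, had −0.41 (−0.95 to 0.12) in hypo+ and 0.47 in hypo, and the carrier Ttr 0.45 (−0.02 to 0.93) and 0.48. The intervals of Crym and Ttr were the widest of these and do not place them at the control level.

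**Figure D4:**
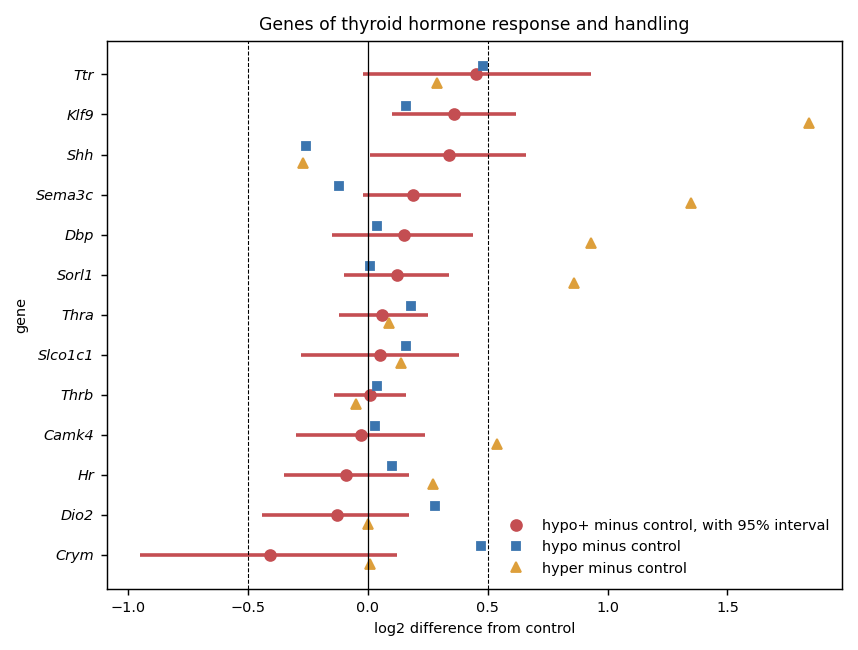
Difference from control (horizontal axis, log2(signal + 32)) of preset hormone genes in hypo, hypo+ and hyper, with 95% confidence intervals for hypo+ and dashed lines at the bound of 0.5. The hypo+ value of Klf9 is 0.36 and its hyper value 1.84.

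Markers of cortical and neighbouring regions varied between the arrays. Of 12 dorsal cortex genes 0 were called (1 with median centring), where 0.564% of all genes were, and 11 were negative, under both other scalings too. Over all 17730 genes 10181 were negative, 9693 under quantile normalization and 14359 with median centring. The list had a median of −0.26, and 2 of its 12 intervals (16.7%) lay inside the bound, against 87.5% of all genes. Nfib had −0.49 (adjusted p = 0.112) and Eomes −0.47 (adjusted p = 0.229). The mean of this list, relative to the control mean, was 0.06, −0.39, −0.35, −0.08 and −0.50 on hypo+ arrays 1 to 5 and −0.24 to 0.19 in control. Deep layer genes had a median of −0.20, with Fezf2 at −0.64 (adjusted p = 0.118) and Sox5 at −0.66 (adjusted p = 0.167), and Foxp2 at 0.34. The list of striatum and ganglionic eminence lay between 0.13 and 0.21 on the hypo+ arrays and between −0.11 and 0.13 in control, and its median difference was 0.06 (−0.04 with median centring). Its highest member, Zfhx3 at 1.11, adds to these means. Of its 14 genes 0 were called (2 under quantile normalization). The hypothalamus and thalamus list lay between −0.25 and 0.72 in hypo+ and between −0.29 and 0.46 in control, and choroid plexus between 0.21 and 0.48 and between −0.48 and 0.57. Of their 14 and 13 genes 0 were called, 11 and 10 were positive (7549 of all 17730 genes), and the medians were 0.14 and 0.30. In bulk tissue fewer cells of a type and less RNA per cell cannot be told apart. The part of tissue makeup in the called genes was not tested.

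The largest differences that missed the threshold, chosen after their values were seen, included region markers that varied widely between arrays of a group. Tcf7l2, expressed in thalamus, read 1080, 45.4, 496.4, 1275.3 and 622 in hypo+ and 999.7, 68.2, 44.7, 185.6 and 68.8 in control (1.56, −0.24 to 3.36, adjusted p = 0.44). Both groups held arrays near the bottom and near the top of this range. Zfhx3, a transcription factor of neuronal differentiation, read 1114.1, 915.5, 1277.3, 1623.5 and 1516 in hypo+ and 837.7, 569, 354.6, 788.7 and 430.9 in control. Its groups did not overlap, yet with a difference of 1.11 ± 0.30 it had an adjusted p of 0.0935. Nr4a3, a nuclear receptor induced by activity, read 402.7 to 730.7 in hypo+ and 767.1 to 1096.1 in control (−0.69 ± 0.18, adjusted p = 0.0878). Lhx2, a regulator of cortical identity, had −0.67 (adjusted p = 0.216). At the edge of the threshold, Dpp8 (adjusted p = 0.0461) and Ppa1 (0.0467) were inside, and Exosc8 (0.0503) and Mfsd1 (0.0504) outside.

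Lists of growth, metabolism and immune cells gave 0 calls, which says little where 0.564% of all genes were called. Of 24 genes of cytosolic ribosomal proteins 0 were called (median −0.04) and all 24 intervals lay inside the bound. Of 28 cell cycle genes 0 were called, 21 were negative (10181 of all 17730 genes) and the median was −0.14. The cholesterol synthesis list had 0 of 22 called, with a median of −0.06. Microglia genes had a median of −0.03, with 11 of 12 intervals inside the bound.

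Several called genes had further probe sets that did not move with the one used, which was that of the highest mean. For Taf15 the other probe set had −0.28, at a mean of 62 in control. For Id2 the others had −0.01 (2256.4 in control and 2273.1 in hypo+) and −0.27. For Kdm6b they had −0.09, 0.61 and 0.07. For Prrc2c they had −0.05 to 0.50, with 0.06 at the brightest (990.1 in control and 1035.1 in hypo+). For Malat1 they ran from −0.11 to 1.10. For Epha3 they had −0.49, −0.58 and 0.56. For Pafah1b1 they had −0.45, −0.49, 0.27 and 0.67, the last with an adjusted p of 0.00296 over all probe sets, opposite to the gene's call. For Cnksr2 the other had 0.43. Of the 25 rises 19 genes had 46 other probe sets, of which 29 had the same sign, 3 passed in the same direction and 0 in the opposite one (median 0.06). Of the 75 falls 56 genes had 125, of which 84 had the same sign, 22 passed in the same direction, in 16 genes, and 2 in the opposite one (median −0.09). For Klf9 a second probe set had 0.34 with an adjusted p of 0.0447.

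Tested singly, 1400 of 45037 probe sets (3.11%) passed, 544 higher (1.21%) and 856 lower (1.90%). Calls were counted by kind of probe set. Among 11439 probe sets that could not be tied to exactly 1 gene, 294 (2.57%) rose while 68 (0.594%) fell, at a median signal of 38.4. Of 15868 further probe sets of named genes 178 (1.12%) rose and 541 (3.41%) fell, and of the 17730 used for genes 72 (0.406%) rose and 247 (1.39%) fell, at a median signal of 193.7. In the authors' deposited table, 1923 probe sets lie under 0.05 in the adjusted permutation p-value of hypo+ against control, 818 with a fold above 1 and 1105 below −1, and the probe sets of all 100 called genes are among them. The authors' deposited table gives Taf15 a fold of 2.16, Prrc2c 1.75, Id2 −1.67 and Rem1 −1.98.

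**Figure D5:**
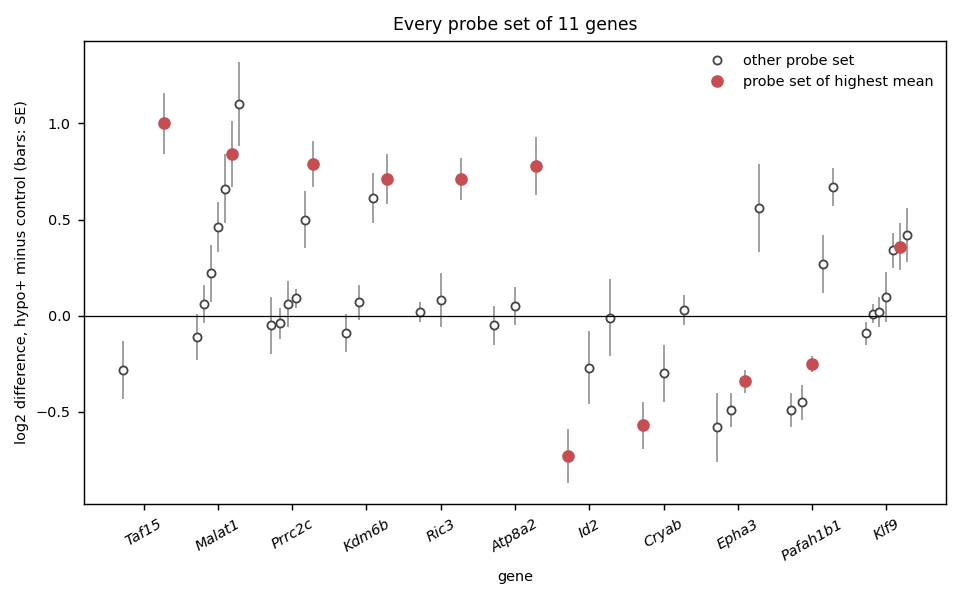
Difference of hypo+ from control (vertical axis, log2(signal + 32), bars for the SE) of every probe set of 11 genes, with the probe set used for the gene filled. For Taf15 the used probe set is at 1.00 and the other at −0.28, and for Epha3 the 4 probe sets lie between −0.58 and 0.56.

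Thyroid hormone receptors bind DNA at repeats of the motif AGGTCA, so the promoters of the called genes were searched for these letters on both strands, from 250 bases before to 50 bases after the start given by RefSeq (GRCm38.p6). The motif was found in 2280 of 13956 promoters of measured genes (16.3%), in 3 of 18 of genes that rose (16.7%) and in 5 of 68 of genes that fell (7.35%). The 3 of rising genes are shown because they hold the letters and belong to genes described above, Tet1 (chr10:62887275-62887574), Lsm11 (chr11:45944886-45945185) and Upf3b (chrX:37110273-37110572), all on the minus strand. They are written 5′ to 3′ in the direction of the gene, and capitals mark the motif, which in Tet1 is on the opposite strand and reads TGACCT.
Tet1: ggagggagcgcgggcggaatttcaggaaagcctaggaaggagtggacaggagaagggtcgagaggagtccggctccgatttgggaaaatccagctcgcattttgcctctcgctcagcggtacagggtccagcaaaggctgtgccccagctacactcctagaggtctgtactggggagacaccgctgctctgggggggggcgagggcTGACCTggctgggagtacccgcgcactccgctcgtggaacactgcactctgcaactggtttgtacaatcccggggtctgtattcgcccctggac
Lsm11: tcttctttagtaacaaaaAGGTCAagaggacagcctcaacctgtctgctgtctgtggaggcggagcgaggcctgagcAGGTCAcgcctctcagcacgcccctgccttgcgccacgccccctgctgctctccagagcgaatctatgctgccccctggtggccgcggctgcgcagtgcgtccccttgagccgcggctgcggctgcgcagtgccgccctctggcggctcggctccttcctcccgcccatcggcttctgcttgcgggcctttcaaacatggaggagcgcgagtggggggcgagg
Upf3b: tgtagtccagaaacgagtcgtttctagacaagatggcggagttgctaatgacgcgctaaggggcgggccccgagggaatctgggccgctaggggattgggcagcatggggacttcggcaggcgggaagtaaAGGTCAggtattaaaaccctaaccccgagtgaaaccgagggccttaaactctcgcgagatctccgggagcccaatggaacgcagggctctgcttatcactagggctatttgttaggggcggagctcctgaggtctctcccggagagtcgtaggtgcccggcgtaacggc
Lsm11 holds the letters in 2 places and the others in 1 each. A match is a description of these windows and not a binding site.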

How the data were processed

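RNA of 19 fetal cortices was measured on microarrays, described in the labels as a rat design although the gene names are of mouse. The deposited intensity values are the authors' normalized signals on a linear scale (8.0 to 29808.5), with present calls. RMA and MAS5 are named per the submitters' processing notes, with version and role not given in the sources used here. The authors' deposited table also holds a permutation p-value and a score, the signed fold, per comparison, used only as described.

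Probe sets were named through the RefSeq table (GRCm38.p6), and 33598 probe sets with 1 gene gave 17730 genes, each by its probe set of highest mean. Values were taken as log2(signal + 32) and fitted with limma 3.58.1 in R 4.3.3 over all 4 groups, with Benjamini-Hochberg adjustment over all genes (15 residual degrees of freedom). The procedure was tested on simulated data. Named genes are the 15 largest rises and falls, list members that passed, and 14 preset hormone genes. Some genes that the rule names are counted but not reported here. Other genes named were chosen after their values were seen. Members and lists were chosen with earlier results of these data known. Alternatives were pseudocount, scaling, filters, probe set choice, arrays left out, the replicate number as a block, and other variance models.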

Additional observations from a re-analysis of the deposited data

Results flagged for a closer look

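Single arrays stood apart from the rest of their group in 12 of 188 groups of 4 or 5 arrays examined, by the gap to the nearest array relative to the group's range, and chance alone gives about 1 in 20. In hypo+, replicate 2 was lowest for Ric3 (147.7) and Zfp945 (500.8), and replicate 3 for Gprin2 (526.6). In control, replicate 4 was highest for Atxn2 (311.5) and replicate 2 lowest for C1galt1 (114.6). In hypo, replicate 5 was lowest for Taf15 (129.9) and Atxn2 (154.4), replicate 1 for Nup205 (753.4) and replicate 4 for Dio2 (39.7). In hyper, replicate 4 was highest for Malat1 (1777.8) and lowest for Atp8a2 (135.8), and replicate 1 was lowest for Ttr (9750.7).

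Ddx3y of the Y chromosome read 695.9 on hypo+ replicate 1 against 9.0 to 11.3 in control, although the fetuses are described as female.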

How the results depend on the processing

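The count of 100 called genes moved with most choices. It was 5 with a pseudocount of 1, 198 with a pseudocount of 100, 65 with present probe sets only, 1400 with each probe set on its own, 5 with the compared arrays only, 249 with array weights, 48 with a trended and robust variance, 1923 by the authors' deposited permutation p-value, and 482 of 8681 genes with the second highest probe set, an alternative chosen after seeing the data. Leaving out 1 array at a time gave 0 to 171. It stayed within 1.5 times of 100 under quantile normalization (75), median centring (95), a mean signal of at least 100 (112), the mean of a gene's probe sets (89) and without both arrays of Y-linked signal (94), with 1 symbol per probe set (103), and without the hypo arrays (109, chosen after seeing the data). The count of 15517 genes inside the bound was 11761 with a pseudocount of 1 and 16956 with 100. It was 9384 with a mean signal of at least 100, 36696 with each probe set and 6721 with the second probe set, where fewer or more features were tested. With the second highest probe set the sign turned for Taf15 (−0.28), Kdm6b (−0.09), Cnksr2 (0.43) and Epha3 (0.56), and the cause was not tested. Of the 33 named called genes 6 lost their call in at least 50% of the 36 settings, 1 of which called 0 genes.

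Deviations of same-numbered hypo+ and control arrays from their group means correlated at 0.43, 0.35, −0.07, 0.02 and −0.22, and arrays of different number at up to 0.40, so the numbers were not taken as pairs. With the replicate block 25 genes were called, 9 higher and 16 lower.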
